A study of Mus musculus with 173 samples.

Results

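The glucocorticoid and metallothionein response genes described here are 10 genes: the receptor gene Nr3c1, the glucocorticoid-responsive genes Fkbp5, Sgk1, Tsc22d3 and Zbtb16, the metallothionein genes Mt1 and Mt2, and the stress-responsive genes Cdkn1a, Cebpd and Angptl4. They were chosen by name, 10 of 38561 genes in the tables, and all 10 were found and tested in each of 11 tissues. Polyadenylated RNA was measured in bulk tissue of 16 C57BL/6 mice aged 6 months, of which 8 were heterozygous for Q175, a knock-in allele with an expanded CAG run in the mouse huntingtin gene Htt, and 8 were wild type. Each genotype had 4 mice of each sex. The tissues were brown adipose tissue, gonadal and intestinal white adipose tissue, skin, gastrocnemius muscle, heart, brainstem, cerebellum, hippocampus, hypothalamus/thalamus and corpus callosum. There were 8 libraries of each genotype per tissue except for 7 wild-type libraries of gonadal adipose tissue and 6 of skin, with totals of 28 to 48 M estimated counts. By their labels the Q175 mice lived with heterozygous Q175 mice and the wild-type mice, whose codes are of the Q20 line, with heterozygous Q20 mice, while the design text calls the controls littermates. Genotype and housing therefore cannot be told apart in any comparison.

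Glucocorticoids, in mice mainly corticosterone, bind the receptor encoded by Nr3c1, which then enters the nucleus and acts on genes near its response elements. Fkbp5 encodes a co-chaperone that lowers the receptor's hormone affinity, Sgk1 a kinase that acts on ion transport, Tsc22d3 (also called GILZ) an anti-inflammatory leucine zipper protein, and Zbtb16 (PLZF) a zinc finger transcription factor. The metallothioneins encoded by Mt1 and Mt2 bind zinc and copper and are induced both by zinc, through the factor MTF1 at metal response elements, and by glucocorticoids. Cdkn1a encodes the cell cycle inhibitor p21, Cebpd a C/EBP transcription factor of the acute phase and of early adipocyte differentiation, and Angptl4 a secreted inhibitor of lipoprotein lipase that is induced by fasting, fatty acids and glucocorticoids. In bulk tissue, fewer cells of a type and less RNA per cell cannot be told apart.

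The upstream sequences of Sgk1, Mt2 and Mt1 are shown because they hold matches that few other promoters hold. These are a glucocorticoid element in Sgk1 and Mt1 and several matches of a loose metal core in Mt2. Both strands of the 250 bases before each start were searched. The letters TGCNCNC are a loose form of the metal response element core, so a match need not be such an element. GNACA and TGTNC with any 3 bases between them are a form of the glucocorticoid response element. Sequences are from RefSeq (GRCm38.p6), 5′ to 3′ on the gene's strand, with matches in capitals.
Sgk1 (chr10:21993640-21993889, + strand): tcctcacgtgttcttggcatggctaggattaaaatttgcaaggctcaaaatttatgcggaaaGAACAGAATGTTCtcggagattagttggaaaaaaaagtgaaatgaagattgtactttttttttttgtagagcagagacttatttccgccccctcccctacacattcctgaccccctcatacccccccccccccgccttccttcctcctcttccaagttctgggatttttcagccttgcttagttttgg
Mt2 (chr8:94172368-94172617, + strand): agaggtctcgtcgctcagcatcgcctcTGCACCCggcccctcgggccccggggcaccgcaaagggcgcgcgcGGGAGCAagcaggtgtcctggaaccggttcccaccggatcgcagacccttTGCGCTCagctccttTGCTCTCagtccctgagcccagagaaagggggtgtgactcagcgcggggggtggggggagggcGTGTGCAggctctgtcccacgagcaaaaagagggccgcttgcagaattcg
Mt1 (chr8:94178839-94179088, + strand): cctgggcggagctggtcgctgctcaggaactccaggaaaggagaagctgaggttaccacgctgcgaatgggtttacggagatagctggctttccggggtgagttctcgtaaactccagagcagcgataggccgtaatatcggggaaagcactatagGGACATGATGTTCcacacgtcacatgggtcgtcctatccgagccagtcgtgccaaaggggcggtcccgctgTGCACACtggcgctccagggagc
The Sgk1 window holds 1 match of the glucocorticoid element from 188 to 176 bases before the start, and the Mt1 window holds 1 from 94 to 82 bases before it. Of 32817 promoters of this length, 127 (0.387%) hold such a match. The Mt2 window holds 5 matches of the loose metal core and the Mt1 window 1, where 44.4% of promoters hold at least 1 and 1.28% hold 4 or more. The Sgk1 window belongs to 1 of 6 listed Sgk1 starts. For Mt1, GENCODE vM21 lists starts at 94179082, 94179211 and 94179241, and for Mt2 at 94172664 and 94172860, so transcripts of both genes also begin downstream of these windows. The starts of Mt2 and Mt1 used here lie 6471 bases apart on the same strand. The windows of Fkbp5 and Tsc22d3 (in 1 of 3 starts) hold 1 match of the loose metal core each and no glucocorticoid element of these letters. That of Cdkn1a holds neither. The table listed 6 of the 10 genes, and Zbtb16, Cebpd, Angptl4 and Nr3c1 are named only.

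The labels were checked on Abhd1 and Htt, which were respectively higher in 11 of 11 and lower in 11 of 11 tissues of Q175 mice (log2 fold changes of 0.91 to 2.71, called in 9 tissues, and of -0.58 to -0.11, called in 4). The Abhd1 level of 1 Q175 male, Q175B0574_10, was inside the range of wild-type libraries in 11 of 11 tissues. In 10 libraries the log2 level declined with transcript length by more than 0.12 per doubling of length, beside the other libraries of the tissue. Results were recomputed without that mouse and without those libraries, both chosen after seeing the data. Gonadal adipose libraries of all 4 Q175 males held epididymal transcripts (8 genes summed, 127 to 3410 in CPM, counts scaled to the library total), against 0.101 to 4.63 CPM in the other gonadal libraries. Brown adipose libraries varied in skeletal muscle transcripts, which reached 973 CPM in Q175 mice (lowest 8.12) and 20000 CPM in wild-type mice (lowest 28.5).

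Levels of the 10 genes differed widely between tissues. They are given as the deposited FPKM (per length and per library total), mean ± SD over wild-type libraries. Nr3c1, the receptor gene, was the most even, from 12.9 ± 1.04 FPKM (n = 8) in heart to 33.2 ± 4.36 FPKM (n = 7) in gonadal adipose tissue, a 2.57-fold span. Angptl4 spanned 240-fold, from 0.688 ± 0.178 FPKM (n = 8) in brainstem to 165 ± 58.2 FPKM (n = 7) in gonadal adipose tissue. It is thus largely a transcript of fat among these tissues, with 134 ± 30 FPKM (n = 8) in brown and 76.3 ± 39.2 FPKM (n = 8) in intestinal adipose tissue, 19.3 ± 4.95 FPKM (n = 6) in skin and 1.62 ± 0.862 FPKM (n = 8) or less in heart, muscle and brain.

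Among the glucocorticoid-responsive genes the highest tissue was not shared. Sgk1 was highest in corpus callosum, at 220 ± 167 FPKM (n = 8), where its libraries ranged from 31 to 508 FPKM, and lowest in heart, at 19.5 ± 4.79 FPKM (n = 8), an 11.3-fold span of means. Tsc22d3 was highest in skin, at 140 ± 81.6 FPKM (n = 6), and lowest in hippocampus, at 31.6 ± 6.14 FPKM (n = 8), a 4.43-fold span. Fkbp5 and Zbtb16 shared both ends of the order, with gonadal adipose tissue highest (21.3 ± 11.7 and 17 ± 6.58 FPKM, n = 7), cerebellum lowest (3.04 ± 0.558 and 1.8 ± 0.706 FPKM, n = 8) and hippocampus the highest brain region (19.4 ± 1.37 and 12.4 ± 1.48 FPKM, n = 8).

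The metallothionein genes were high in skin and brain and low in muscle. Mt1 ranged from 10.1 ± 3.72 FPKM in gastrocnemius to 338 ± 81.7 FPKM in corpus callosum (both n = 8), a 33.5-fold span. Mt2 ranged from 6.81 ± 3.52 FPKM (n = 8) in gastrocnemius to 467 ± 213 FPKM (n = 6) in skin, a 68.6-fold span. Skin was also the highest tissue for Cdkn1a, from 150 to 213 FPKM in its 6 libraries, where the next tissue, brown adipose tissue, had 25.3 ± 15.6 FPKM (n = 8) and hippocampus 3.32 ± 0.738 FPKM (n = 8). Cebpd was low throughout, from 0.78 ± 0.256 FPKM (n = 8) in hypothalamus/thalamus to 9.69 ± 3.03 FPKM (n = 6) in skin. Of 100 pairs of tissues next to each other in these orders, 0 passed an exact sign-flip permutation test paired by mouse after Benjamini-Hochberg adjustment, and 31 had an unadjusted p under 0.05. The exact permutation test of 8 mice cannot go below p = 0.00781, and the smallest adjusted p was 0.0601. Some gaps were nonetheless wide: Mt1 was higher in heart than in gastrocnemius in 8 of 8 mice (log2 difference 2.78), and Cdkn1a higher in skin than in brown adipose tissue in 6 of 6 (2.9). In the Q175 libraries 16 of 100 pairs passed the same test, and 34 had an unadjusted p under 0.05. Passing depends on how many pairs reach the lowest possible p, which is higher for wild-type pairs with skin or gonadal tissue, where mice are fewer. The counts 0 and 16 therefore do not show a firmer order in Q175 mice.

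**Figure D1:**
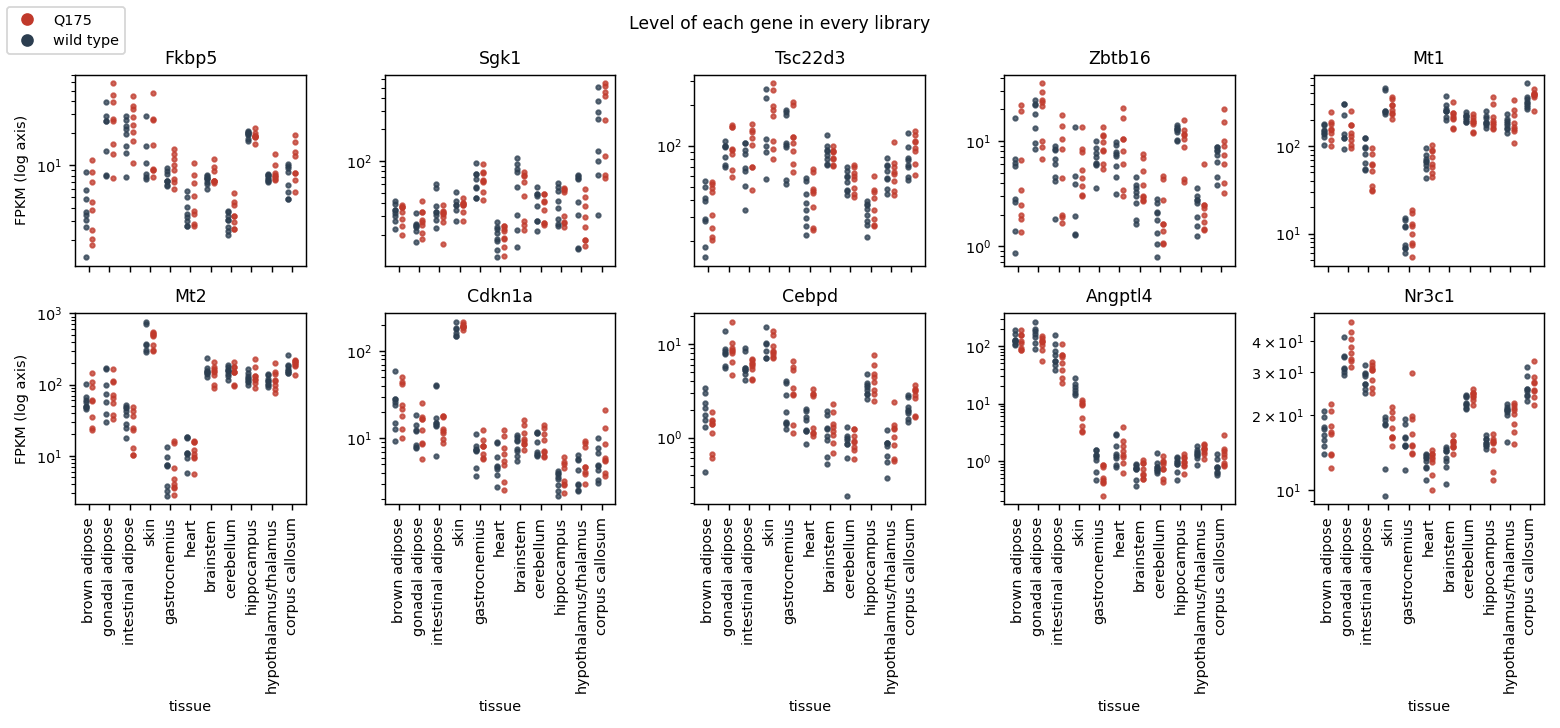
Deposited FPKM (log axis) of each of the 10 genes in every library by tissue, with Q175 and wild-type libraries in separate colours. Angptl4 spans 240-fold between wild-type tissue means and Nr3c1 2.57-fold.

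For Tsc22d3, Sgk1 and Fkbp5, mice with a high level in one tissue tended to have a high level in the others. The agreement was less for the other 7 genes and near the median of all genes for Nr3c1. For each gene the log2 CPM was centred on the mean of its genotype and sex group in each tissue, and the share of the remaining variance that lay between mice was computed over the 11 tissues. The share is a description without a test, since tissues of 1 mouse share all that befell that mouse, including the time of death, which the labels do not give. Over 12485 genes measured in every tissue the median share was 6.12%, and the highest 5% of genes began at 27.1%.

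Tsc22d3 had a share of 83.8%, which ranked 2 of 12485 genes. Sgk1 had 79.1% (rank 4) and Fkbp5 77.7% (rank 5), so 3 of the 4 glucocorticoid-responsive genes were among the 5 genes whose tissues moved together most. Zbtb16 followed with 43.6% (rank 149). Cdkn1a, the p21 gene, had 51.4% (rank 77) and Cebpd 37% (rank 266). The metallothionein genes were just under the highest 5%, with 26% for Mt2 and 25% for Mt1, as was Angptl4 with 24.7%. Nr3c1, the receptor gene itself, had 7.25% (rank 5480), close to the median of all genes. The mean of the 55 correlations between tissue pairs, each over the mice that 2 tissues share, gave nearly the same figures, from 0.84 for Tsc22d3 to 0.08 for Nr3c1.

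Leaving out each mouse in turn kept the share within 81.7% to 85.5% for Tsc22d3, 76.3% to 82.1% for Sgk1 and 72.9% to 81.5% for Fkbp5. It ran from 46.8% to 60% for Cdkn1a and from 32.2% to 47.3% for Zbtb16, while the median of all genes lay between 5.42% and 6.59%. The share of Nr3c1 ran from 2.7% (rank 8527, without Q175B0574_10) to 9.1%. Without the 10 length-biased libraries the share of Zbtb16 was 60.1%.

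**Figure D2:**
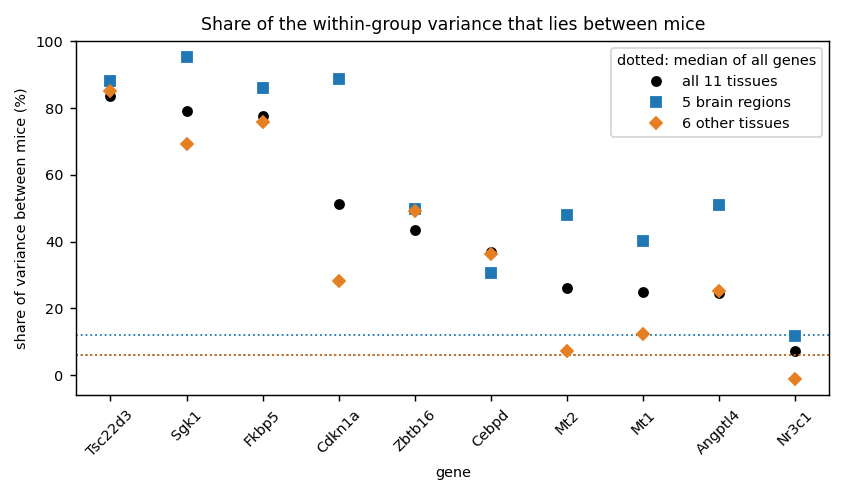
Share of the variance within genotype and sex groups that lies between mice, in percent, for each of the 10 genes over all 11 tissues, the 5 brain regions and the 6 other tissues, with dotted lines at the medians of all genes. Tsc22d3, Sgk1 and Fkbp5 lie between 69.4% and 95.4% in each set, and Nr3c1 between -1.09% and 11.6%.

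The shares of Tsc22d3, Sgk1 and Fkbp5 were high both inside and outside the brain. Over the 5 brain regions the share was 95.4% for Sgk1 (rank 2 of 15164), 88.7% for Cdkn1a (rank 8), 88.2% for Tsc22d3 (rank 10) and 86% for Fkbp5 (rank 17), beside a median of 12%. Over the 6 other tissues it was 85.1% for Tsc22d3 (rank 1 of 12895), 75.8% for Fkbp5 (rank 4) and 69.4% for Sgk1 (rank 11), beside a median of 6.07%. Cdkn1a had 28.1% there. Mt2 had 48.1% in the brain and 7.26% outside it, and Mt1 40.3% and 12.3%. The differences between brain and other tissues were not tested. Brain regions of 1 mouse may also share dissection, which was not tested.

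The levels behind these shares can be read mouse by mouse. Here they are not centred on genotype and sex means, so differences by genotype and sex remain in them. Sgk1 in corpus callosum ranged from 161 to 1330 CPM with a median of 783 in Q175 mice and from 72.5 to 1250 CPM with a median of 436 in wild-type mice. The 16 values fell on both sides of a gap between 278 and 560 CPM, with 7 mice below and 9 above it. The lowest library was that of wild-type male Q20B0001_07 (72.5 CPM) and the highest that of Q175 female Q175B0575_04 (1330 CPM). The same wild-type male was the lowest in brainstem too (38 CPM), where the highest was wild-type female Q20B0005_05 (254 CPM), which had 1250 CPM in corpus callosum. Both of these libraries of Q20B0005_05 are length-biased. Both genotypes thus held mice at both ends.

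Tsc22d3 showed some of the same mice near the ends of its range. Its level lay above the tissue mean over all mice in 11 of 11 tissues in the Q175 females Q175B0575_02 and Q175B0575_04 and the wild-type females Q20B0005_03 and Q20B0005_05, with a median deviation of 0.73 (log2) in Q175B0575_04. It lay above that mean in none of the tissues of 5 mice: Q175B0575_08, Q175B0574_06, Q175B0574_10, Q20B0005_07 and Q20B0001_07, with a median deviation of -0.72 in the last. Centred on genotype and sex means, as for the shares, Tsc22d3 was above in 11 of 11 tissues in the males Q175B0574_02, Q175B0574_04 and Q20B0001_01 too. By that centring it was above in 10 of 11 in Q175B0575_02 and in 0 of 11 in Q175B0575_10. In skin Q175B0575_04 had 567 CPM, the highest, and Q20B0001_07 had 111 CPM, the lowest, as in hippocampus with 116 and 39.8 CPM. The hippocampus library of Q175B0575_04 is length-biased. In gastrocnemius Q175B0575_04 and Q20B0001_07 had 385 and 116 CPM, each next to the end of a range of 108 to 393 CPM. The same pair of mice was therefore apart in tissues as unlike as skin, muscle and brain.

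Fkbp5 was above its tissue mean in 11 of 11 tissues in the Q175 mice Q175B0575_04, Q175B0574_02 and Q175B0574_04 and in 10 of 10 in the wild-type male Q20B0001_05, and in 0 of 11 in Q175B0575_10. Q175B0574_04 had the highest median deviation of Fkbp5, 0.97, and of Zbtb16, 1.4, for which it was above the mean in 11 of 11 tissues. Cdkn1a was above its mean in 11 of 11 tissues of Q175B0574_02 and Q175B0574_04 and in 0 of 10 of Q20B0005_09. The mouse order was thus alike but not identical between genes. Q20B0005_05 was above the mean over all mice in 11 of 11 tissues for Sgk1 and Tsc22d3 and in 4 of 11 for Cdkn1a. Centred on genotype and sex means, it was above in 10 of 11 for Sgk1, 11 of 11 for Tsc22d3 and 7 of 11 for Cdkn1a.

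**Figure D3:**
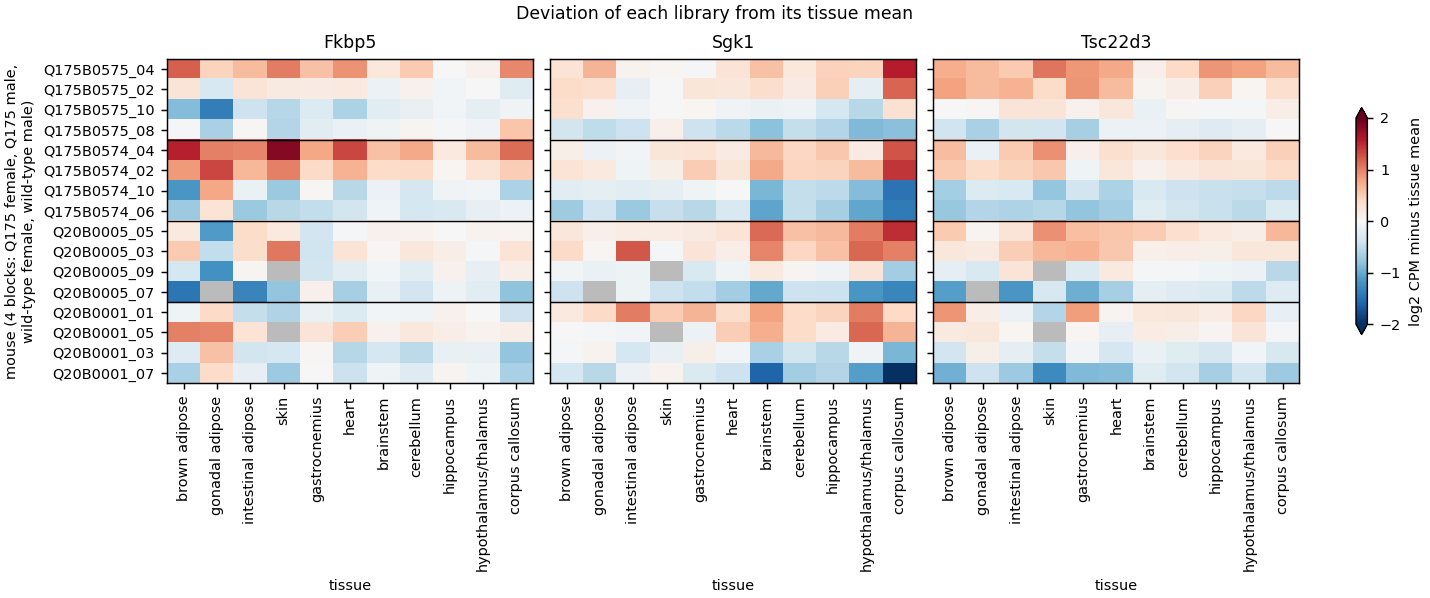
Deviation of log2 CPM from the tissue mean for each mouse (rows, in 4 blocks of genotype and sex) and tissue (columns), 1 panel each for Fkbp5, Sgk1 and Tsc22d3, with grey where a mouse has no library. Rows of a single colour across tissues occur in both genotypes. In the Tsc22d3 panel they include Q175B0575_04 (high in 11 of 11 tissues) and Q20B0001_07 (low in 11 of 11). The Fkbp5 panel has partly other such rows, among them Q175B0574_04 (high in 11 of 11).

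Within tissues, pairs of these genes moved together to different degrees. The correlation over the libraries of a tissue, with genotype and sex means removed, was averaged over the 11 tissues as a description, and its points share library and mouse. It was 0.92 for Mt1 and Mt2 (0.81 to 0.97 in single tissues), neighbours on chromosome 8. Sgk1 and Tsc22d3 followed with 0.84, then Fkbp5 and Tsc22d3 as well as Sgk1 and Cdkn1a with 0.71. Fkbp5 and Zbtb16 had 0.64, while Zbtb16 and Sgk1 had 0.35. Nr3c1 was on the negative side with 8 of the other 9 genes, with -0.41 for both Mt1 and Cdkn1a. Single tissues ran from -0.92 to 0.71 for Mt1 and from -0.79 to 0.03 for Cdkn1a. By counts and FPKM the transcript length is 6144 bases for Nr3c1 and 540 for Mt1. The part of transcript length in these correlations was not tested.

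Genes with the most similar pattern were sought among 13007 genes by the same mean correlation. For Fkbp5 these were Hif3a (0.80), Klf13 (0.73) and Tsc22d3. For Sgk1 they were Tsc22d3, Errfi1 (0.82) and Mfsd2a (0.82, over 8 tissues), for Tsc22d3 Sgk1, Ddit4 (0.83) and Errfi1 (0.79), and for Zbtb16 Klf9 (0.78), Lrrc8a (0.73) and Hif3a (0.72). For Mt1 they were Mt2, Gadd45g (0.69) and Pim3 (0.68), and for Mt2 Mt1, Ppp1r1b (0.64, over 8 tissues) and Tmem161a (0.62). For Cdkn1a they were Mfsd2a (0.75, over 8 tissues), Bcl2l1 (0.75) and Sgk1, and for Cebpd Tsc22d3 (0.65), Nfkbia (0.64) and Klf2 (0.61). Angptl4 had no close partner (Fcgrt, 0.50, then Fam20a, 0.49, and Entpd2, 0.48). For Nr3c1 they were Cpd (0.70), Ncam2 (0.69, over 8 tissues) and Qser1 (0.69).

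A list of 40 other glucocorticoid targets gave the wider view. Of the 37 measured in every tissue, 20 (54.1%) lay in the highest 5% of genes by share between mice, with a median of 30.5%. Hif3a had 75.9%, Errfi1, a feedback inhibitor of EGF receptors, 72.4%, Fam107a 69.1%, Per1, a clock gene that glucocorticoids induce, 65.3% and Ddit4, an inhibitor of mTOR signalling, 65.2%. At the other end were Gpd1 with 4.08%, Fbxo32 with 3.99% and Lpin1 with 2.69%. A list of 15 clock genes leaves out Per1 and Cry2, which were placed among the targets. Of these 15, 9 (60%) lay in the highest 5%, with a median of 33.2% and Per2 highest at 66.8%. Red cell genes did so in 5 of 5 cases (median 41.6%). The part of time of day, and of blood left in the tissue, in the shares of these genes was not tested. Of 24 other metal and zinc genes 0 were in the highest 5% (median 8.37%), and of 18 PPAR and fasting genes 0 (median 10.6%). Of 16 genes of the receptor machinery 6 were, Hspa8, a chaperone gene, highest at 69.3%.

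By genotype, 2 of 110 gene and tissue pairs passed the test, both of them Angptl4, which was lower in Q175 mice in gonadal adipose tissue and in skin. Tests were edgeR quasi-likelihood fits in each tissue with sex as a term, Benjamini-Hochberg adjusted over all genes of the tissue. In gonadal adipose tissue 32.1% of all genes were called, and 1 of the 10 genes. In skin 6.53% of all genes were called, and again 1 of 10. Among brain regions the share of all genes called was 16.1% in cerebellum, 4.56% in hippocampus, 3.07% in brainstem, 0.574% in hypothalamus/thalamus and 0.0544% in corpus callosum. Elsewhere it was 5.41% in brown adipose tissue, 0.0549% in heart, 0.0213% in gastrocnemius and 0% in intestinal adipose tissue. In those 9 tissues 0 of the 10 genes were called.

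**Figure D4:**
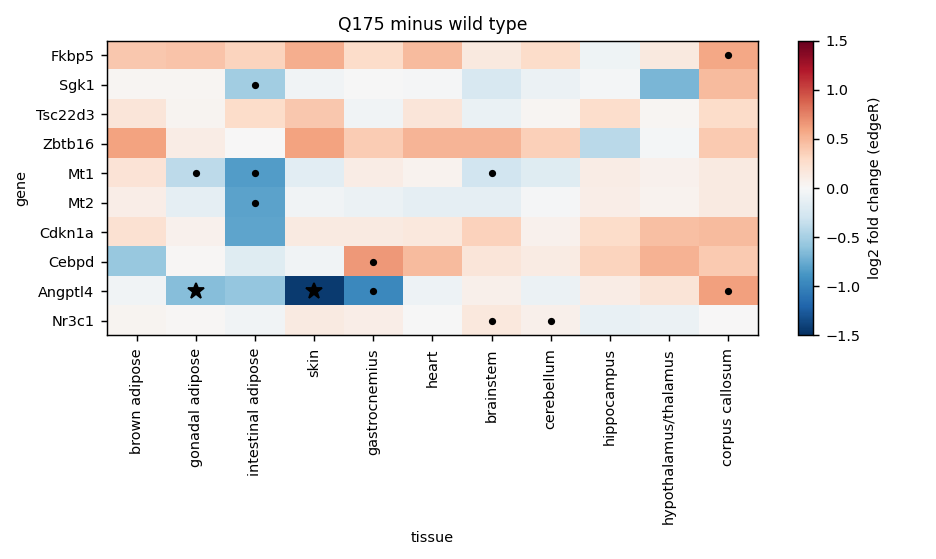
Log2 fold change of Q175 over wild type (edgeR, colour) for each of the 10 genes (rows) in each tissue (columns), with a star where the adjusted p is under 0.05 and a dot where only the unadjusted p is. The starred pairs are Angptl4 in gonadal adipose tissue (-0.64) and in skin (-1.44).

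Angptl4 in skin ranged from 6.17 to 23 CPM with a median of 14.7 in 8 Q175 libraries, and from 27.5 to 52 CPM with a median of 37.8 in 6 wild-type libraries. The ranges did not overlap, in females (6.17, 6.41, 19.5 and 23 against 27.5, 40 and 52 CPM) or in males (7.97, 10.6, 18.8 and 20.5 against 29.8, 35.6 and 44.9 CPM). Means were 14.1 ± 6.99 and 38.3 ± 9.28 CPM, a log2 fold change of -1.44 ± 0.32 (SE, adjusted p = 0.0256, edgeR). Leaving out single libraries gave changes of -1.6 to -1.31 and adjusted p of 0.0211 to 0.0589 in edgeR, with 12 of 14 fits below the threshold, the exceptions being the fits without wild-type male replicate 2, with the highest p, and without Q175 male replicate 3. Without the mouse Q175B0574_10 the change was -1.55 (adjusted p = 0.0418, edgeR). With a code in the library names, of unstated meaning, as a term it was -1.44 and did not pass (adjusted p = 0.0547, edgeR).

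Fat and epidermal transcripts of skin differed between the genotypes too. Adipocyte transcripts (Adipoq, Lep, Retn, Plin1, Cfd and Nnat summed) ran from 577 to 1110 CPM with a median of 916 in Q175 skin and from 659 to 2100 CPM with a median of 1670 in wild-type skin, and each of the 6 had a lower mean in Q175 skin. Keratinocyte transcripts (7 genes summed) ran from 32100 to 41400 CPM and from 13800 to 28100 CPM, with no overlap. Of 22 PPAR and fasting genes tested in skin, 5 fell and 0 rose (22.7%, against 6.53% of all genes), with a median log2 fold change of -0.54. Among those that fell were Fabp4, a fatty acid carrier of adipocytes (540 ± 188 against 1090 ± 329 CPM, n = 8 and 6, change -1.03 ± 0.17, adjusted p = 0.0127, edgeR), Lpl, the lipase that the Angptl4 protein inhibits (-0.85, adjusted p = 0.0255, edgeR), and Plin2, a lipid droplet coat protein (-0.60, adjusted p = 0.0255, edgeR). The part of these cell types in the Angptl4 difference was not tested.

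In gonadal adipose tissue Angptl4 ranged from 108 to 266 CPM with a median of 224 in 8 Q175 libraries and from 187 to 536 CPM with a median of 332 in 7 wild-type libraries. The ranges overlapped, in females (108, 170, 236 and 239 against 187, 261 and 332 CPM) but not in males (195, 212, 242 and 266 against 287, 361, 402 and 536 CPM). Means were 209 ± 50.5 and 338 ± 112 CPM, a log2 fold change of -0.64 ± 0.18 (SE, adjusted p = 0.018, edgeR). Leaving out single libraries gave -0.74 to -0.54, with an adjusted p under 0.05 in 15 of 15 edgeR fits (0.00863 to 0.044). Without Q175B0574_10 it was -0.68 (adjusted p = 0.027, edgeR) and without the 1 length-biased library -0.63 (adjusted p = 0.0346, edgeR). Slopes of log2 level per doubling of transcript length nearly parted the genotypes here. They were 0.0228 to 0.121 in Q175 libraries apart from Q175B0575_10 (-0.105), and -0.137 to -0.0382 in wild-type ones apart from Q20B0001_01 (0.0303). With a transcript length offset the Angptl4 change was -0.61 (adjusted p = 0.025, edgeR). The part of length in the other genes called by genotype in this tissue was not tested. In females alone, which lack the epididymal transcripts of the Q175 males, the change was -0.44 ± 0.3 and did not pass the test (4 against 3 libraries, adjusted p = 0.421, edgeR), a comparison also chosen after seeing the data. The call was also lost in limma on log2(FPKM + 1) and with a code in the library names as a term (-0.92, adjusted p = 0.0683, edgeR).

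White adipocyte transcripts in gonadal tissue ran from 12500 to 20600 CPM (median 15900) in Q175 and from 17000 to 20000 CPM (median 18800) in wild-type mice. Macrophage transcripts ran from 504 to 613 CPM (median 584) and from 178 to 566 CPM (median 302), and fibroblast transcripts from 2460 to 3470 CPM and from 1180 to 2580 CPM. Both were therefore on the high side in Q175 libraries, beside the epididymal transcripts of the Q175 males, and their part in the Angptl4 difference was not tested. Of 23 PPAR and fasting genes 8 fell and 2 rose (43.5%, against 32.1% of all genes), with a median of -0.26. Fabp4 fell by 0.68 on the log2 scale (adjusted p = 0.00417, edgeR) and Plin2 by 0.49 (adjusted p = 0.00298, edgeR), while Cpt1a, the mitochondrial fatty acid importer, rose by 0.56 (adjusted p = 0.0022, edgeR).

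Angptl4 in the other tissues did not pass the test. In gastrocnemius its level was low, 0.515 to 1.72 CPM with a median of 0.996 in Q175 and 0.764 to 3.13 CPM with a median of 2.35 in wild-type libraries, with overlapping ranges and a log2 fold change of -0.97 ± 0.27 (adjusted p = 0.56, edgeR). In intestinal adipose tissue it was -0.58 (adjusted p = 0.655, edgeR), from 41.3 to 253 CPM against 72.2 to 367 CPM. In brown adipose tissue, where the gene is as abundant as in gonadal fat, the change was -0.05 ± 0.12 (adjusted p = 0.897, edgeR), and the libraries ran from 172 to 365 CPM and from 216 to 360 CPM. In corpus callosum it was 0.61 (adjusted p = 0.237, edgeR), so the fold changes had both signs, 7 below and 4 above 0. Adipocyte transcripts were uneven in corpus callosum libraries, with Adipoq at a mean of 3.46 and up to 55.1 CPM, and Cfd at 10.2 and up to 164 CPM. Their part in the Angptl4 level there was not tested.

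**Figure D5:**
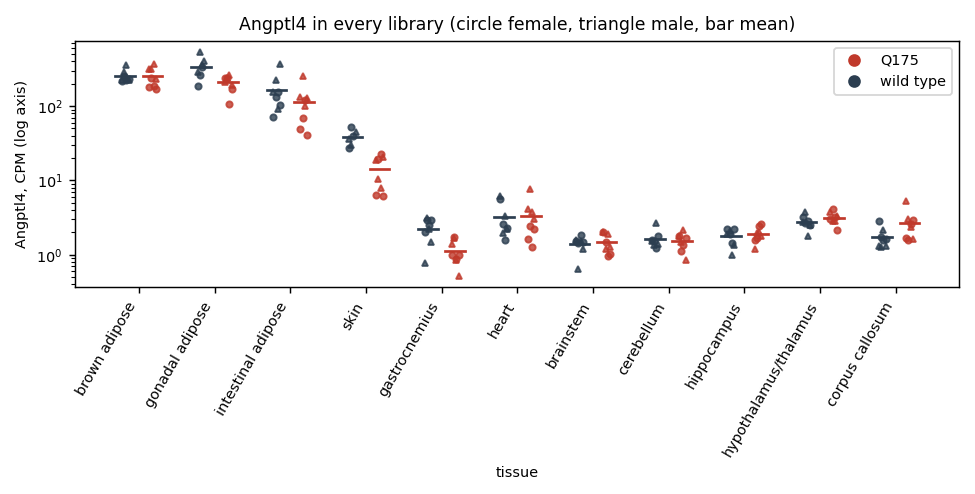
Angptl4 in every library, in CPM on a log axis, by tissue and genotype, with circles for females, triangles for males and bars for means. The Q175 and wild-type libraries do not overlap in skin (up to 23 against 27.5 CPM and above), and they overlap in gonadal adipose tissue.

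Whether the genotype difference of a gene differed between tissues was tested with limma voom over all libraries with the mouse as a block, where 31.5% of all genes were called. Of the 10 genes, 2 passed: Angptl4 (F = 9.14, adjusted p = 5.24e-09, limma) and Mt1 (F = 2.97, adjusted p = 0.0103, limma). For the other 8 the adjusted p was 0.416 to 0.982. The Mt1 changes ran from -0.84 in intestinal adipose tissue to 0.2 in brown adipose tissue, and none of them passed in its own tissue. On the log2(FPKM + 1) scale the Mt1 value was F = 2.15 (adjusted p = 0.0487, limma). This test takes the spread of a gene as equal in all tissues.

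The metallothionein genes passed the genotype test in none of the 11 tissues. The fold change of Mt1 was below 0 in 5 tissues and above 0 in 6, and that of Mt2 below 0 in 7 and above 0 in 4. In intestinal adipose tissue Mt1 ran from 15.2 to 61.1 CPM with a median of 28.8 in Q175 and from 27.1 to 83.2 CPM with a median of 48.5 in wild-type libraries. The ranges overlapped, and the log2 fold change was -0.84 ± 0.32 (adjusted p = 0.598, edgeR). Mt2 there had -0.80 (adjusted p = 0.634, edgeR). The fit over all tissues together, voom with 1 variance per gene, called both there, and Angptl4 (adjusted p = 0.00242, 0.0442 and 0.00831, limma). In gonadal adipose tissue Mt1 had -0.39 (adjusted p = 0.0843, edgeR) and in brainstem -0.29 (adjusted p = 0.324, edgeR). Mt3, the brain metallothionein, fell in cerebellum by 0.16 (adjusted p = 0.0267, edgeR), one of 4 of 29 metal and zinc genes called there (13.8%, against 16.1% of all genes), 2 in each direction. In gonadal tissue 6 of 27 such genes rose and 1 fell (25.9%, against 32.1% of all genes), among them the zinc importer gene Slc39a10 (0.52, adjusted p = 0.00132, edgeR).

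Fkbp5, Tsc22d3, Zbtb16 and Cdkn1a had fold changes above 0 in 10, 9, 9 and 10 of 11 tissues, and Sgk1 below 0 in 8 of 11. As the tissues came from the same mice, and these genes agree between tissues of a mouse, the tissues are not separate observations. Averaged over the 11 tissues of each mouse, 0 of the 10 genes were called by genotype in limma, with 1.11% of all genes called. Fkbp5 had a log2 difference of 0.25 ± 0.19 (adjusted p = 0.581, limma), Tsc22d3 of 0.14 ± 0.19, Zbtb16 of 0.16 ± 0.26, Cdkn1a of 0.16 ± 0.19 and Sgk1 of -0.07 ± 0.24 (adjusted p of 0.747 to 0.928, limma). Over the 5 brain regions (5.12% of genes called) and the 6 other tissues (0.31%) 0 of the 10 were called, and the smallest p among genotype differences was that of Angptl4 in the other tissues (-0.60 ± 0.17, adjusted p = 0.105, limma).

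Single tissues gave these genes an unadjusted p under 0.05 in few places, and none of the following passed the test. Fkbp5 in corpus callosum ran from 19.7 to 67.1 CPM with a median of 36.3 in Q175 and from 17.6 to 37.1 CPM with a median of 27.6 in wild-type libraries, with overlap (0.58 ± 0.25, adjusted p = 0.244, edgeR). Sgk1 in intestinal adipose tissue had -0.52 ± 0.23 (adjusted p = 0.634, edgeR), and Cebpd in gastrocnemius 0.65 ± 0.31 (adjusted p = 0.792, edgeR). Nr3c1 in brainstem ran from 85.3 to 102 CPM against 66.3 to 92.6 CPM (0.16 ± 0.061, adjusted p = 0.224, edgeR), and in cerebellum from 131 to 154 CPM against 129 to 146 CPM (0.08 ± 0.033, adjusted p = 0.12, edgeR). The receptor gene was otherwise within 0.14 of 0 on the log2 scale in every tissue.

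Other glucocorticoid targets changed by genotype in few cases and in both directions. In gonadal adipose tissue 5 of 39 rose and 1 fell (15.4%, under the 32.1% of all genes), Hif3a by 1.02 (adjusted p = 0.0033, edgeR), Fam107a by 1.09 (adjusted p = 0.0209, edgeR) and the interleukin receptor gene Il1r1 by 0.32 (adjusted p = 0.0115, edgeR) among them. In skin 6 of 39 fell and 0 rose (15.4%, against 6.53%), with Cdkn1c, a cell cycle inhibitor gene, at -0.70 (adjusted p = 0.0135, edgeR), Rhob at -0.56 and Mertk at -0.74. In brainstem 3 of 38 rose and 1 fell (10.5%, against 3.07% of all genes). In cerebellum 2 rose and 4 fell (15.8%, against 16.1%), and in brown adipose tissue 2 of 39 rose and 2 fell (10.3%, against 5.41%). In hippocampus 1 of 37 rose (Cdkn1c, 0.61, adjusted p = 0.0124, edgeR) and 1 fell (Per1, -0.36, adjusted p = 0.0368, edgeR), 5.41% against 4.56% of all genes. In hypothalamus/thalamus 1 of 37 fell (2.7%, against 0.574%).

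Glul, the glutamine synthetase gene of astrocytes, fell in 3 of the 5 brain regions. It fell by 0.45 in brainstem (1300 ± 90.1 against 1780 ± 74.5 CPM, n = 8 each, adjusted p = 1.37e-05, edgeR), by 0.43 in hypothalamus/thalamus (adjusted p = 0.00385, edgeR) and by 0.18 in cerebellum (adjusted p = 0.00767, edgeR). Of the receptor machinery, Nr3c2, the mineralocorticoid receptor gene, fell in hippocampus by 0.25 (186 ± 17.8 against 220 ± 19.3 CPM, n = 8 each, adjusted p = 0.0284, edgeR) together with the corepressor gene Nrip1. Hsd11b1, whose enzyme regenerates active glucocorticoid, fell in brainstem by 0.29 (adjusted p = 0.0439, edgeR) and in gonadal adipose tissue by 0.41 (adjusted p = 0.00623, edgeR).

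By sex, 7 gene and tissue pairs passed the test, 6 higher and 1 lower in males, and 4 of the 6 lay in gonadal adipose tissue. There Fkbp5 ran from 27.3 to 97.8 CPM with a median of 45.9 in 7 females and from 87.3 to 182 CPM with a median of 116 in 8 males, with 5 males above the highest female (male minus female 1.36, adjusted p = 0.000864, edgeR). Mt2 ran from 18.6 to 40.6 CPM in females (median 23) and from 34.6 to 98.7 CPM in males (median 56.1), 7 of 8 males above the highest female (1.25, adjusted p = 0.00197, edgeR). Mt1 had medians of 63.1 and 102 CPM (0.76, adjusted p = 0.00392, edgeR) and Cdkn1a of 17 and 28 CPM (0.70, adjusted p = 0.017, edgeR), again with 7 of 8 males above the highest female. These 4 stayed under the threshold in 15 of 15 fits without single libraries. In that tissue 29.8% of all genes were called by sex. Summed red cell transcripts there ran from 494 to 1100 CPM in females and from 1010 to 2580 CPM in males, and epididymal ones up to 4.63 CPM in females and 3410 CPM in males. Their part in these sex differences was not tested.

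In heart Cdkn1a ran from 4.83 to 11.6 CPM with a median of 7.74 in females and from 8.32 to 23.1 CPM with a median of 15.7 in males, with 6 of 8 males above the highest female (0.98, adjusted p = 0.0164, edgeR, 11.4% of genes called). In brown adipose tissue (8.7% called) Nr3c1 was lower in males, 78.3 to 101 CPM (median 90.2) against 95.2 to 146 CPM (median 118), with 6 of 8 males below the lowest female (-0.41, adjusted p = 0.00912, edgeR). Angptl4 was higher in males there, 225 to 365 CPM against 172 to 253 CPM (0.46, adjusted p = 0.0296, edgeR), and passed in 8 of 16 fits without single libraries, with the highest adjusted p, 0.0677 in edgeR, without Q175 female replicate 1. Muscle transcripts reached 20000 CPM in brown adipose libraries of males and 7330 CPM in those of females. In heart the summed clock genes ran from 435 to 658 CPM in males and from 752 to 912 CPM in females, and in gonadal adipose tissue from 734 to 1130 and from 1210 to 1650 CPM. The sexes did not overlap in these sums, and the part of time of day in the sex differences was not tested.

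The other 8 tissues gave 0 calls by sex among the 10 genes. The share of all genes called was 0.162% in intestinal adipose tissue, 1.82% in skin, 14.1% in gastrocnemius, 0.456% in cerebellum, 0.109% in brainstem, 0.102% in hypothalamus/thalamus, 0.092% in hippocampus and 0.0786% in corpus callosum. On the mean of each mouse over the 6 other tissues (7.69% of genes called) Nr3c1 was lower in males by -0.22 ± 0.038 (adjusted p = 0.00238, limma) and Mt2 higher by 0.54 ± 0.13 (adjusted p = 0.0201, limma). Over the 5 brain regions (0.448% called) and over all 11 tissues (5.68% called) 0 of the 10 passed, and Mt1 and Mt2 were on the lower side in males in the brain (-0.27 and -0.28, unadjusted p = 0.0104 and 0.0177, limma). The genotype difference did not pass a test of differing between sexes in any of 110 pairs (smallest adjusted p 0.23, 4 unadjusted p under 0.05, edgeR, 0.0212% of tests over all genes called), and DESeq2 called 0 with 5 unadjusted.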

How the data were processed

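RNA was measured in libraries of 11 tissues from 16 mice. Flash-frozen tissue, Qiagen miRNeasy extraction and HiSeq sequencing of polyadenylated RNA are given per the labels' protocols. Per the submitters' processing notes CASAVA 1.8.2 was used, with no role given. The aligner, counter, build and annotation were not given in the sources used here. The authors deposited estimated counts per gene (31.4% of values above 0 are not whole) and FPKM values, which they scaled to gene length and library total. Of 38561 genes, 36639 (95%) have a symbol in the reference table. The authors' pipeline may have divided reads between Mt1, Mt2 and their relatives in ways not stated.

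Estimated counts were rounded and fitted in each tissue with edgeR 4.0.16 (filterByExpr, TMM, robust quasi-likelihood, genotype and sex as terms), with Benjamini-Hochberg adjustment over all genes and a threshold of 0.05. Differences between tissues were tested with limma 3.58.1 (voom, mouse as block), and means per mouse with limma. CPM of the 10 genes are TMM-scaled, and log2 CPM use a prior count of 2. Sums of marker transcripts, such as the epididymal, red cell and clock sums, were scaled to the library total alone. DESeq2 1.42.0, other scaling, filters, units, a length offset and leaving out libraries were alternatives. R 4.3.3, Python 3.11.15 and matplotlib 3.10.9 were used. Scripts were tested on simulated data. There the test of tissue differences also called more unchanged genes than its threshold allows, as it assumes 1 spread per gene over tissues.

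The genes and lists were chosen with earlier results of these data known. Named beside them are up to 3 called genes per list and tissue with the smallest p, and the 3 genes most alike to each. Genes named for their share between mice were chosen after their values were seen. Totals of 28 to 48 M counts make counting error small except for genes near 1 CPM, such as Angptl4 and Cebpd in brain. Each tissue sample is from a separate mouse, but tissues share mice.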

Additional observations from a re-analysis of the deposited data

Results flagged for a closer look

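In groups of 6 to 8 libraries of a genotype, the highest or lowest value of a gene was set against Dixon's critical value. Of 220 groups, 19 (8.64%) were beyond it, and 16 of the 19 were highest values. Normally distributed values would give about 5%. The CPM were not on a log scale, the sexes were pooled and genes such as Mt1 and Mt2 move together. The share flagged is therefore no test of an excess. The explanations of the flagged values were not tested.

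Among the glucocorticoid-responsive genes, Tsc22d3 in hypothalamus/thalamus was 201 CPM in Q175 female replicate 2, with the next library at 135 CPM. Zbtb16 was 82.8 CPM in brown adipose tissue of wild-type female replicate 4 (next 31.3 CPM), 67.4 CPM in skin of wild-type female replicate 2 (next 23.8 CPM) and 30.4 CPM in hypothalamus/thalamus of Q175 male replicate 4 (next 12.6 CPM). Cdkn1a in brown adipose tissue was 110 CPM in the same wild-type female replicate 4 library as Zbtb16 (next 48.7 CPM). Cebpd was 17.1 CPM in gonadal adipose tissue of wild-type male replicate 1 (next 10.8 CPM), a length-biased library, and 2.83 CPM in hypothalamus/thalamus of Q175 female replicate 2 (next 1.6 CPM), the length-biased library that was highest for Tsc22d3.

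The metallothionein genes stood apart together in corpus callosum. Q175 male replicate 4 was the lowest of its genotype for Mt1 (133 CPM, next 201 CPM) and Mt2 (74.5 CPM, next 101 CPM). Wild-type female replicate 1 was the highest of its genotype for Mt1 (294 CPM, next 200 CPM) and Mt2 (150 CPM, next 107 CPM), and it is a length-biased library. Mt2 was 51.1 CPM in brown adipose tissue of wild-type male replicate 4 (next 35.5 CPM) and 131 CPM in brainstem of wild-type female replicate 3 (next 94.7 CPM), another length-biased library.

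Angptl4 was 253 CPM in intestinal adipose tissue of Q175 male replicate 2 (next 133 CPM), 7.69 CPM in heart of Q175 male replicate 2 (next 4.14 CPM), 2.66 CPM in cerebellum of wild-type male replicate 3 (next 1.8 CPM) and 5.26 CPM in corpus callosum of Q175 male replicate 1 (next 3.06 CPM), a length-biased library. Nr3c1 was 179 CPM in gastrocnemius of Q175 female replicate 2 (next 115 CPM), and 99 CPM, the lowest, in hypothalamus/thalamus of wild-type male replicate 2 (next 123 CPM), also length-biased.

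The genotype difference itself differed between tissues for Angptl4 (F = 9.14) and for Mt1 (F = 2.97) by the limma test over all tissues.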

How the results depend on the processing

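Of 227 recomputed counts of calls, 211 stayed within 1.5 times of the reported count. In gonadal adipose tissue the count by genotype was 0 under log2(FPKM + 1), with or without a filter, with the name code as a term and in females alone. In skin it was 0 with the name code. In intestinal adipose tissue it was 3 with voom over all tissues. The tissue order had 16 neighbour pairs that passed in Q175 libraries, with 34 unadjusted p under 0.05 against 31 in wild-type libraries. By sex, brown adipose tissue had 1 without Q175B0574_10, gastrocnemius 1 (Cebpd) and skin 1 (Mt2) with DESeq2, and the mean over 6 other tissues 1 without gonadal adipose tissue. The causes were not tested.

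By the labels, samples share only a replicate number. Of 85 same-numbered pairs, 29 had a correlation of deviations over 0.1 and 24 one under -0.1 (median 0.06, range -0.42 to 0.72). In 30 cases samples correlated best with their own number, and how many would do so by chance was not computed. With the replicate block, with or without the length offset, the count by genotype was 0 in gonadal adipose tissue and 0 in skin. The block alone gave Angptl4 log2 fold changes of -0.64 (adjusted p = 0.0708, edgeR) and -1.53 (adjusted p = 0.122, edgeR) there, beside -0.64 and -1.44 without it. With the block alone the count was 1 in cerebellum (Mt1, -0.19, adjusted p = 0.0464, edgeR).

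Leaving out single libraries gave 0 to 2 calls by genotype in cerebellum, 1 to 2 in gonadal adipose tissue and 0 to 1 in skin. By sex it gave 1 to 3 in brown adipose tissue, 0 to 1 in gastrocnemius, 1 to 2 in heart and 0 to 1 in skin, and 0 to 1 on the mean of all 11 tissues without single mice. The genotype difference on that mean changed sign without single mice for Sgk1 (-0.18 to 0.03) and Zbtb16 (-0.01 to 0.29), neither of which passed the test. Depth limits the low levels of Angptl4 and Cebpd in brain.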

Other observations

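Relatives and partners of Cebpd and Cdkn1a were also read by genotype. In gonadal adipose tissue 3 of 14 genes of the C/EBP family and the acute phase fell and 1 rose (28.6%, against 32.1% of all genes). Those that fell were the C/EBP factor genes Cebpb (-0.82, adjusted p = 0.00208, edgeR), Cebpa (-0.35, adjusted p = 0.0078, edgeR) and Cebpg (-0.20, adjusted p = 0.0208, edgeR), while Cebpd was not called. In cerebellum 2 of 8 rose and 0 fell (25%, against 16.1%). They were Serpina3n, an acute phase protease inhibitor gene (5.28 ± 1.05 against 3.27 ± 0.758 CPM, n = 8 each, adjusted p = 0.000927, edgeR), and Stat3 (0.12, adjusted p = 0.00268, edgeR). Serpina3n also rose in brainstem, by 0.24 (adjusted p = 0.0159, edgeR).

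Of 24 p53 targets other than Cdkn1a, 4 rose and 6 fell in gonadal adipose tissue (41.7%, against 32.1% of all genes), and in cerebellum 3 of 23 fell and 0 rose (13%, against 16.1%). Phlda3, a p53 target that restrains AKT signalling, fell in cerebellum by 0.34 (adjusted p = 0.00312, edgeR) and rose in brown adipose tissue by 0.49 (adjusted p = 0.0114, edgeR).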
